A study of Mus musculus with 11 samples.

Results

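Chemokine ligands and receptors were read from the gene expression profiles of epididymal white adipose tissue (eWAT), the visceral fat pad beside the testis, of 11 male mice. The members were all genes of the per-mouse tables whose symbol begins with Ccl, Ccr, Cxcl or Cxcr and a digit, or with Cx3c, and 37 of the 15453 genes met that rule. They comprised 25 ligands (15 of the CC class, 9 of the CXC class and Cx3cl1) and 12 receptors (5 CC, 6 CXC and Cx3cr1). The CXC receptors included Cxcr7, an atypical receptor that the mouse annotation calls Ackr3.

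The comparison was between 6 wildtype (WT) mice and 5 mice labelled Mest+/- that inherited the inactivated allele from the father (pKO). Mest is an imprinted gene of adipocytes that is expressed almost entirely from the paternal allele. Exon 3 was deleted in the germline with an Ella-cre transgene, which is active in the early embryo, so the deletion was not limited to fat cells. All mice were C57BL/6 in the labels (C57BL/6J in the study's methods), were 16 weeks old, and had received high fat diet since week 8. The pKO mice of the diet study were leaner than their WT littermates, so genotype and adiposity cannot be told apart here. Each animal gave 1 library, made from whole tissue.

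Chemokines are small, mostly secreted proteins that guide migrating leukocytes, and their classes are named after the spacing of conserved cysteines. They act through G protein-coupled receptors on the responding cells, and many ligands bind more than one receptor while many receptors bind several ligands. In obese adipose tissue the Ccl2 to Ccr2 axis is the one best known for recruiting monocytes that become tissue macrophages. Cxcl12 with Cxcr4 retains leukocytes and progenitor cells, and Cx3cl1 with Cx3cr1 acts on monocytes and resident macrophages.

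Expression was measured by SOLiD SAGE, in which NlaIII cuts cDNA at CATG and each transcript is counted by 1 short tag beside the CATG site nearest its 3' end. A value is the number of tags of a gene after division by a library-specific size factor and is called here a normalized tag count. Since a transcript gives 1 tag whatever its length, levels of different genes are on 1 scale, except where a site is poorly placed. Between 9659740 and 14825727 tags were counted per WT library and between 11320342 and 14626803 per pKO library (exact permutation test on the totals, p = 0.825). Mest itself had 1479, 793, 1978, 2275 and 1792 normalized tags in the 5 pKO mice and 20756 to 27897 in WT mice (median 26018), or 6.63% of the WT mean (log2 difference -3.99, standard error 0.22). Its tag lies in exon 12 of 12, outside the deleted exon, so it reads the level of the transcript and not the deletion. The adipocyte markers Fabp4, Adipoq and Cidec were abundant in every library, at 471444 or more, 53365 or more and 45897 or more.

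The annotation of the mm10 genome build (GENCODE M21, GRCm38) gave positions for all 37 genes, and 35 of them hold a complete tag of 27 bases at the 3'-most site. In 33 the tag lay in the 3' untranslated region (3' UTR), in Ccl27a it lay in exon 2 of 3 within the coding sequence, and in Ccl5 it began upstream of the coding sequence in exon 1 of 3. No tag was shared with another annotated gene. The tags below are those of the genes whose differences are described first, with CATG in capitals, and they show that the chemokines of the same cluster are told apart by their tags although their coding sequences are related.
Ccl7, chr11:82047320-82047346, plus strand, exon 3 of 3: CATGtcactttaacgttgtgttagctg
Ccl2, chr11:82037250-82037276, plus strand, exon 3 of 3: CATGaatactaaaatttcttaaatgca
Ccl6, chr11:83587914-83587940, minus strand, exon 4 of 4: CATGtatagccctggtttaccccaata
Ccl3, chr11:83647889-83647915, minus strand, exon 3 of 3: CATGaactgacaaatgtacaatagatg
Cxcl16, chr11:70454116-70454142, minus strand, exon 5 of 5: CATGgtggcccacaaccatccgcaact
Cxcl12, chr6:117180869-117180895, plus strand, exon 4 of 4: CATGggtgattatctcagtggtgtcac
Cxcl1, chr5:90892874-90892900, plus strand, exon 4 of 4: CATGtgtgggaggctgtgtttgtatgt
Cx3cl1, chr8:94782161-94782187, plus strand, exon 3 of 3: CATGctccacagaaccagttgtaggcc
Ccl27a, chr4:41769865-41769891, minus strand, exon 2 of 3: CATGgaactgcaggaggccgatgggga
Ccr2, chr9:124108130-124108156, plus strand, exon 3 of 3: CATGaaaacctggatagttctatgaga

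The tag position also marked which levels are uncertain. In Cxcl10 the 3'-most site is 7 bases from the end of the annotated transcript and in Ccr1 it is 26 bases from it, so neither holds a whole tag there. Cxcl10, an interferon-induced ligand of Cxcr3, had a mean of 8.22 over all mice, and that low level cannot be set against other genes. Ccr1 was nevertheless read at 66.6. Genes on the opposite strand overlap Ccl27a (Il11ra1), Ccl25 (Elavl1), Cxcl16 (Zmynd15), Ccl2 (Gm17268) and Ccl6 (E230016K23Rik), among others, and whether tags were assigned by strand is not given in the sources used here.

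All 37 genes had tags in at least 1 library and 34 had tags in all 11. At more than 3 tags, the limit that a count of 0 allows for counting error, 28 genes were detected in all 11 libraries, 18 of them ligands and 10 receptors. Levels differed widely, with 3 genes at a mean of 1000 or more, 12 at 100 to 1000, 13 at 10 to 100 and 9 under 10. The genes under 10 were Ccl1, Ccl17, Ccl28, Cxcl2, Cxcl5, Cxcl10, Ccr3, Cxcr3 and Cxcr5. Ccl28, Cxcl2 and Cxcl5 were the members at 0 in some libraries. Of the 50 ligands and receptors named in a list of 40 known pairs, 14 had no value and were not analysed here, among them Ccl8, Ccl12, Ccl19, Ccl20, Ccr4, Ccr6, Ccr8, Ccr9, Ccr10, Cxcl3 and Cxcl11.

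**Figure D1:**
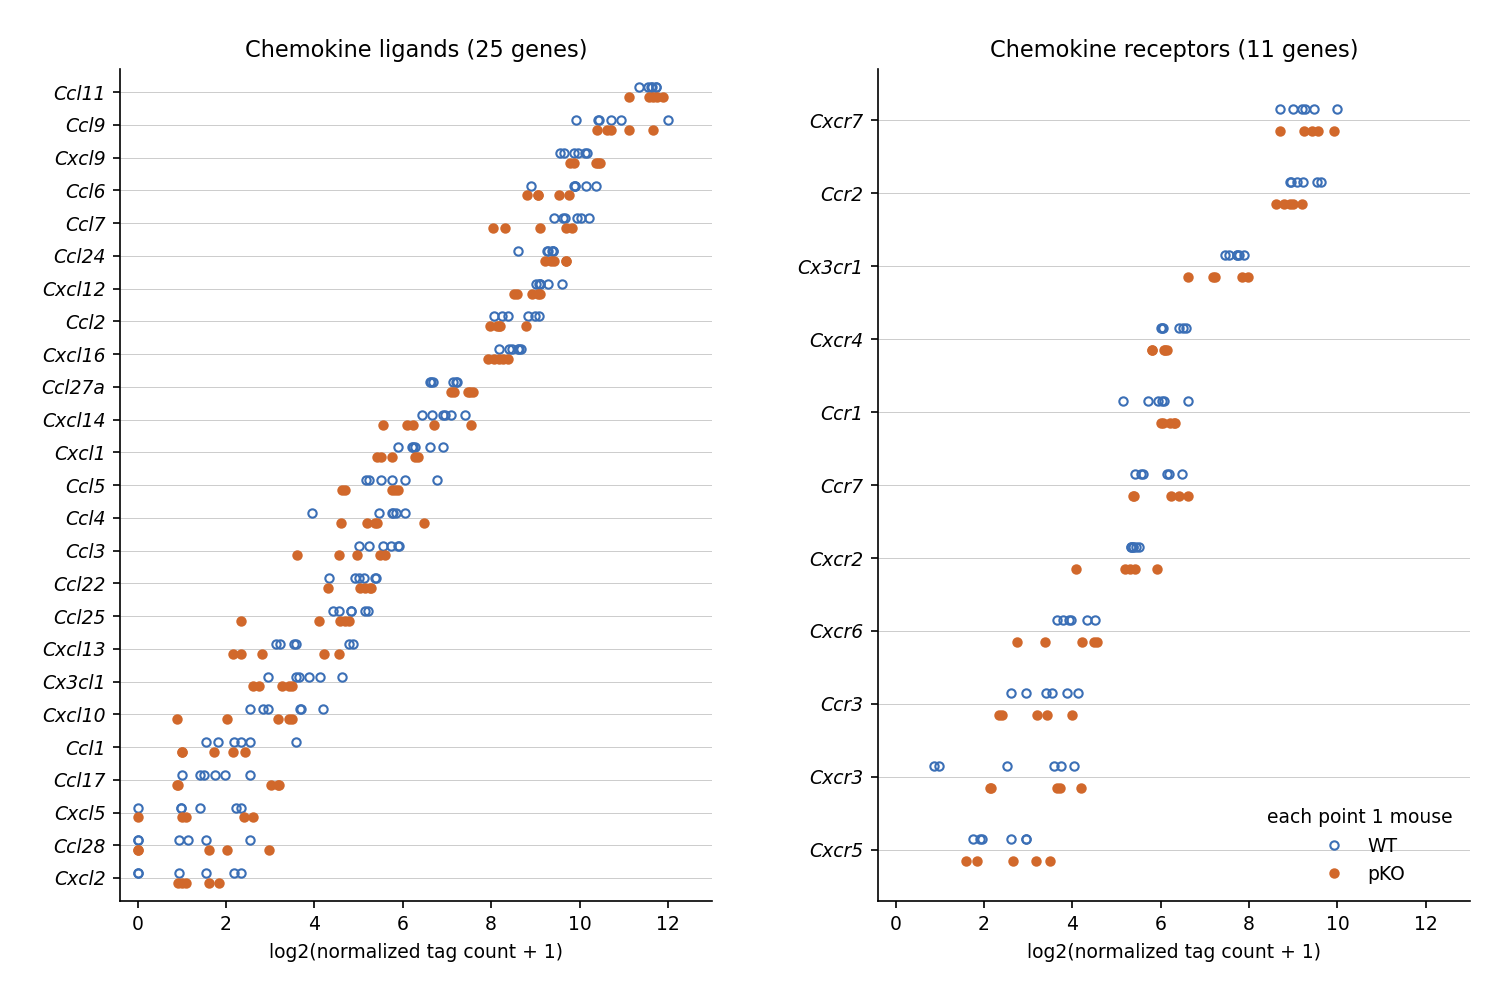
Levels of the 25 ligands (left) and 11 of the receptors (right) in each mouse, as log2(normalized tag count + 1), with open circles for the 6 WT and filled circles for the 5 pKO mice. Genes are ordered by their mean, and in none of them do the WT and pKO ranges lie apart.

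Ccl11 (eotaxin, which binds Ccr3) was the ligand with the highest mean, with 2614 to 3404 normalized tags in WT mice (median 3164) and 2217, 3452, 3255, 3033 and 3788 in pKO mice. Ccl11 alone took 23.8% to 35.6% of all ligand tags of WT mice and 30.0% to 33.9% of those of pKO mice. The genotypes had nearly the same mean, 3121 ± 290 (SD, n = 6) for WT against 3149 ± 590 (SD, n = 5) for pKO, and the 95% interval of the log2 difference ran from -0.31 to 0.30.

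Ccl9, a macrophage-derived ligand of Ccr1, came next, with 967 to 4102 in WT mice (median 1528) and 1337, 1677, 2213, 1581 and 3231 in pKO mice. Ccl9 was below Ccl11 in 10 of the 11 mice, the exception being WT replicate 1 with its 4102, and above Cxcl9 in all 11. Cxcl9, the interferon-gamma-induced ligand of Cxcr3, had 747 to 1155 in WT mice (median 971) and 880, 936, 1374, 1412 and 1319 in pKO mice. In 3 pKO mice it exceeded every WT mouse and in the other two it lay within the WT range (log2 difference 0.29, 95% interval -0.07 to 0.65). Without pKO replicate 1 the difference was 0.39 (limma, unadjusted p = 0.032). Ccl24, a second eotaxin, had 392 to 679 in WT mice (median 645) and 688, 595, 656, 827 and 821 in pKO mice, with a 95% interval of -0.10 to 0.59. Together with Ccl6 and Ccl7, described below, these genes made up 76.2% to 83.5% of the ligand tags of WT mice and 79.0% to 86.4% of those of pKO mice. Of these the means of Cxcl9 (961), Ccl6 (957) and Ccl7 (915) in WT mice were closer to each other than their SDs, so their order in WT mice was not resolved. In each pKO mouse Cxcl9 was above both Ccl6 and Ccl7.

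Among the receptors Cxcr7, which binds and removes Cxcl12, was the highest, with 417 to 1010 in WT mice (median 600) and 415, 759, 602, 686 and 973 in pKO mice. Ccr2, the receptor of inflammatory CC ligands on monocytes and macrophages, had a mean of 553. Cx3cr1 had a mean of 191 and Cxcr4 one of 70.4. Cxcr7 and Ccr2 together took 50.5% to 58.7% of receptor tags of WT mice and 50.6% to 60.5% of those of pKO mice, and the ranges of both genes overlapped. The lymphocyte receptors Cxcr3 and Cxcr5 were scarce, whereas Ccr7 had a mean of 63.9. Cxcr3, the receptor of activated T cells, ranged from 0.836 to 15.3 in WT and up to 17.4 in pKO mice, and Cxcr5, the B cell follicle receptor, from 2.04 to 10.2 over all mice. Cxcr2, a neutrophil receptor, had 41.0 ± 2.23 (SD, n = 6) in WT mice and 38.3 ± 15.5 (SD, n = 5) in pKO mice. No test compared these spreads.

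Chemokine expression was then compared between genotypes with limma on log2(normalized tag count + 1) over all 15453 genes, where a log2 difference is pKO minus WT. At a Benjamini-Hochberg adjusted p of at most 0.1 no member differed. Across all genes 4 (0.0259%) were lower and 1 (0.00647%) was higher in pKO mice at that threshold. No member reached it with the edgeR quasi-likelihood test, DESeq2 or limma-voom on the recovered tags either. At an unadjusted p of at most 0.05, 7 of the 37 genes (18.9%) were lower and 1 (2.7%) was higher in pKO mice. The background at this threshold was 827 genes lower, or 5.35%, and 649 genes higher, or 4.2%. The 7 were the ligands Ccl7, Ccl6, Ccl3, Cxcl16, Cxcl12, Cxcl1 and Cx3cl1, and the 1 was the ligand Ccl27a. Receptors numbered 0 in either direction. The median log2 difference was -0.28 over the 37 genes, -0.35 over the ligands and -0.18 over the receptors, beside 0.00 over all genes. The count of lower members was 2 without WT replicate 4, 2 without pKO replicate 3 and 8 without pKO replicate 2, so it changed with single animals. Over all genes the lower share in these 3 fits was 5.08%, 4.28% and 7.33%. The median log2 difference of the members was then -0.27, -0.24 and -0.26.

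**Figure D2:**
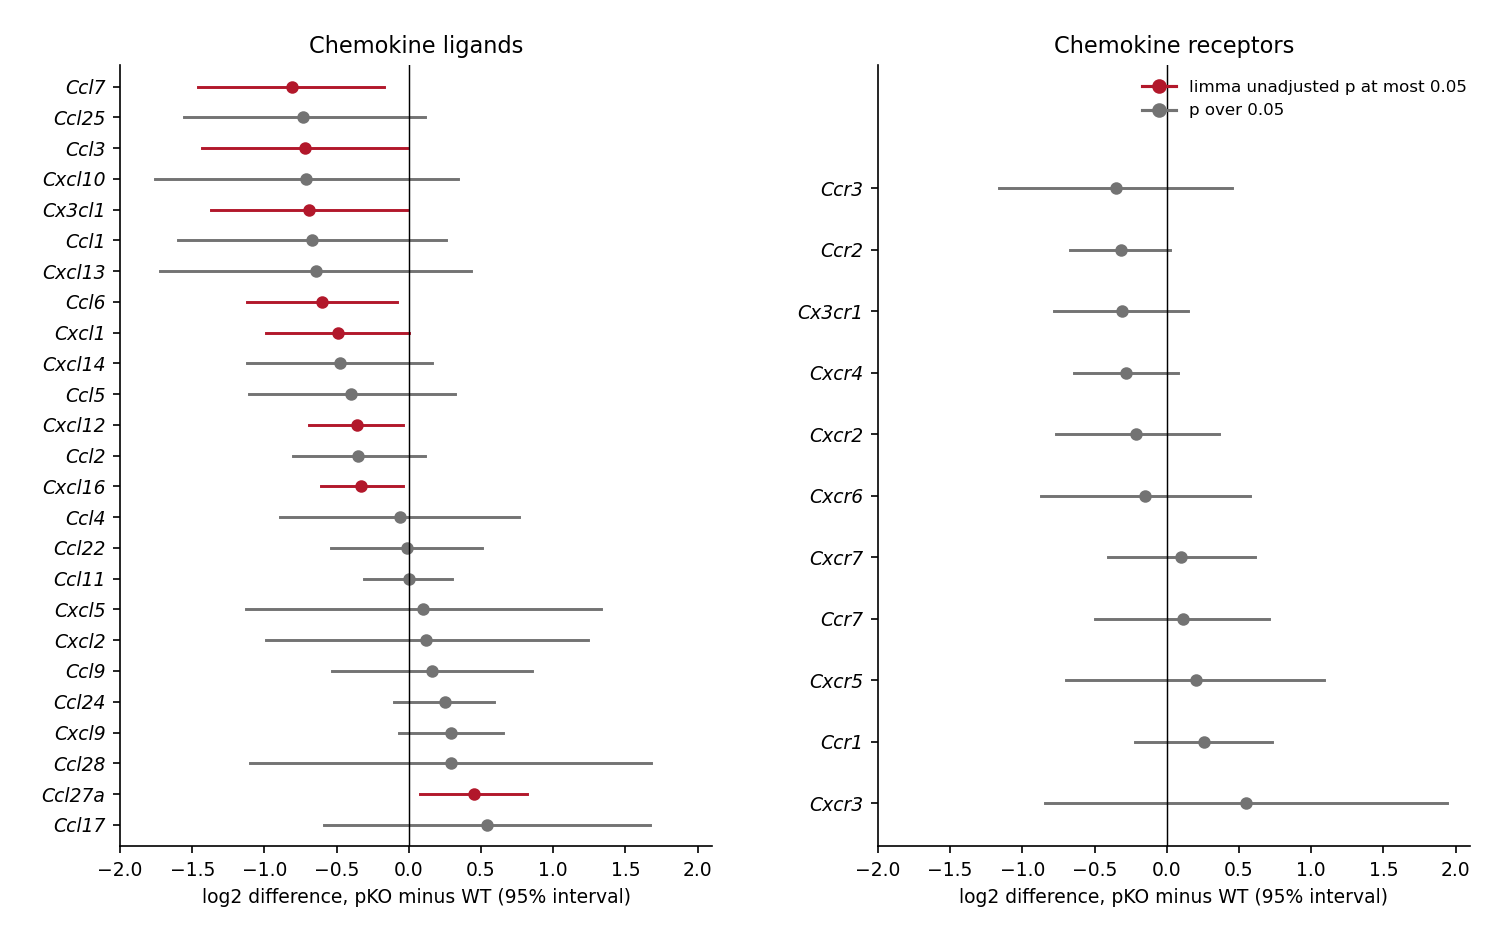
Log2 difference between genotypes (pKO minus WT) of each ligand (left) and of 11 receptors (right), with points for the estimate and lines for the 95% interval from limma. Red marks the 8 genes whose unadjusted p was 0.05 or less, 7 below 0 and Ccl27a above it, and the intervals of the 11 receptors include 0.

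Ccl7 (monocyte chemoattractant protein 3), a ligand of Ccr2 and Ccr1, had the lowest log2 difference of the members in limma, whereas edgeR and DESeq2 gave a lower one for Cx3cl1 (-0.78) than for Ccl7 (-0.67). Its normalized tag count was 687 to 1180 in WT mice (median 895) and 264, 830, 317, 915 and 552 in pKO mice. In 3 of the pKO mice it was below every WT mouse, while pKO replicates 2 and 4 lay within the WT range. The means were 915 ± 186 (SD, n = 6) and 576 ± 293 (SD, n = 5), a log2 difference of -0.81 with a standard error of 0.30 (limma, unadjusted p = 0.017, adjusted p = 0.43). The exact permutation test gave p = 0.043. Without pKO replicate 1 the difference was -0.57 (limma, unadjusted p = 0.051) and without pKO replicate 3 it was -0.64 (unadjusted p = 0.054), and it stayed below 0 in all 22 alternative fits.

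Ccl2 (monocyte chemoattractant protein 1), the principal ligand of Ccr2 and the neighbour of Ccl7 on chromosome 11, had 265 to 541 in WT mice (median 394) and 249, 442, 278, 291 and 289 in pKO mice. In 4 of 5 pKO mice it was at 291 or less and in replicate 2 it was higher than in 3 of the WT mice. It gave a log2 difference of -0.35 with a standard error of 0.21 (limma, unadjusted p = 0.13, adjusted p = 0.63; 95% interval -0.80 to 0.11). Without pKO replicate 2 it was -0.48 (limma, unadjusted p = 0.037) and without WT replicate 6 it was -0.46 (unadjusted p = 0.046). Their receptor Ccr2 had 488 to 796 in WT mice (median 572) and 389, 489, 445, 587 and 507 in pKO mice. The lowest WT values fell among the pKO values, and the log2 difference was -0.32 with a standard error of 0.16 (limma, unadjusted p = 0.066, adjusted p = 0.55). Without WT replicate 2, WT replicate 4 or pKO replicate 4 the difference was -0.38, -0.38 and -0.40, and the unadjusted p was then 0.043, 0.039 and 0.035. Ccl8 and Ccl12, the other ligands of this axis, were not analysed here.

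Ccl6, a CC ligand made by myeloid cells in rodents, had 476 to 1315 in WT mice (median 947) and 450, 865, 737, 534 and 530 in pKO mice. All 5 pKO mice were below the WT median, and WT replicate 5, at 476, was the 1 WT mouse below the highest pKO mouse. This was a log2 difference of -0.60 with a standard error of 0.24 (limma, unadjusted p = 0.027, adjusted p = 0.47; exact permutation test, p = 0.063). It lay between -0.79 and -0.49 as each mouse was left out, with an unadjusted p of 0.055 to 0.073 without WT replicates 4 or 6 or pKO replicates 1, 4 or 5. Ccl3 (macrophage inflammatory protein 1 alpha), a ligand of Ccr1, had 31.1 to 59.2 in WT mice (median 49.1) and 11.2, 43.5, 22.4, 30.0 and 47.1 in pKO mice. In 3 pKO mice it was below every WT mouse and the other two were inside the WT range. For Ccl3 the log2 difference was -0.72 with a standard error of 0.33 (limma, unadjusted p = 0.047, adjusted p = 0.52). The exact permutation test gave p = 0.061. Without pKO replicate 1 the difference was -0.41 (limma, unadjusted p = 0.14). The unadjusted p was also over 0.05 without WT replicates 2, 3, 4 or 6 or pKO replicates 3 or 4, and by the edgeR quasi-likelihood test (0.071) and DESeq2 (0.062). Ccl4, the close relative of Ccl3, had means of 47.8 in WT and 45.8 in pKO mice, with a 95% interval of -0.89 to 0.76.

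Of the CXC ligands, Cxcl16, a transmembrane chemokine of macrophages that binds Cxcr6 and also takes up oxidized lipoprotein, had 289 to 405 in WT mice (median 371) and 287, 308, 334, 243 and 265 in pKO mice. All WT mice but replicate 5 exceeded all pKO mice, the closest values being 335 and 334. The log2 difference was -0.33 with a standard error of 0.13 (limma, unadjusted p = 0.028, adjusted p = 0.47; exact permutation test, p = 0.019), and it was -0.27 (limma, unadjusted p = 0.074) without pKO replicate 4. The unadjusted p was 0.055 to 0.062 without WT replicates 1, 3 or 4 or pKO replicate 5. Its receptor Cxcr6 was low, with 15.7 ± 3.90 (SD, n = 6) for WT against 15.3 ± 7.41 (SD, n = 5) for pKO.

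Cxcl12 (stromal cell-derived factor 1), made by stromal and endothelial cells, had 516 to 777 in WT mice (median 550) and 532, 482, 367, 380 and 546 in pKO mice. All pKO mice were below the WT median and 3 of them below every WT mouse. The log2 difference was -0.36 with a standard error of 0.15 (limma, unadjusted p = 0.032, adjusted p = 0.48; exact permutation test, p = 0.028). Without WT replicate 4, the highest WT mouse, the difference was -0.28 (limma, unadjusted p = 0.075), and the unadjusted p was 0.058 to 0.091 without WT replicate 1 or pKO replicates 3 or 4. Its receptor Cxcr4 had 63.1 to 93.8 in WT mice (median 75.1) and 67.0, 66.5, 54.9, 54.7 and 69.6 in pKO mice. All pKO values of Cxcr4 were below the WT median (log2 difference -0.28, 95% interval -0.64 to 0.08). For Cxcr7, the other receptor of Cxcl12, the log2 difference was 0.10 (95% interval -0.41 to 0.61).

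Cxcl1, a neutrophil attractant that binds Cxcr2, had 58.3 to 119 in WT mice (median 75.5) and 79.8, 44.7, 52.9, 41.5 and 76.7 in pKO mice. In 3 pKO mice Cxcl1 was below every WT mouse and the other two were inside the WT range. Its log2 difference was -0.49 with a standard error of 0.23 (limma, unadjusted p = 0.049, adjusted p = 0.52; exact permutation test, p = 0.071). It was the least stable of the 8 together with Cx3cl1: the unadjusted p exceeded 0.05 in 8 of the 11 fits that left out a mouse for each of them. For Cxcl1 the difference was then between -0.61 and -0.38. Cx3cl1 (fractalkine), a membrane-bound chemokine, was read from few tags, with 6.69 to 23.7 in WT mice (median 12.6) and 8.58, 5.73, 5.09, 9.71 and 10.2 in pKO mice. All pKO mice were below the WT median, and WT replicate 3 was the 1 WT mouse below the highest pKO mouse. For Cx3cl1 the log2 difference was -0.69 with a standard error of 0.32 (limma, unadjusted p = 0.046, adjusted p = 0.52; exact permutation test, p = 0.050), between -0.86 and -0.53 as each mouse was left out. Cx3cr1 had 175 to 235 in WT mice (median 211) and 252, 144, 97.7, 149 and 227 in pKO mice. In 3 pKO mice Cx3cr1 was below every WT mouse and in replicate 1 it was above them (log2 difference -0.31, 95% interval -0.78 to 0.15), and without pKO replicate 1 the difference was -0.46 (limma, unadjusted p = 0.038).

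Ccl27a, a ligand of Ccr10 known from skin, was the member that was higher in pKO mice, at 96.8 to 148 in WT mice (median 120) and 182, 136, 192, 177 and 141 in pKO mice. In 3 pKO mice it exceeded every WT mouse and all 5 were above the WT median. The log2 difference was 0.45 with a standard error of 0.17 (limma, unadjusted p = 0.020, adjusted p = 0.44; exact permutation test, p = 0.041), and it was 0.40 (limma, unadjusted p = 0.053) without pKO replicate 3. The tag of Ccl27a lies within the coding sequence, and Il11ra1 overlaps the gene on the opposite strand, and Ccr10 was not analysed here.

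**Figure D3:**
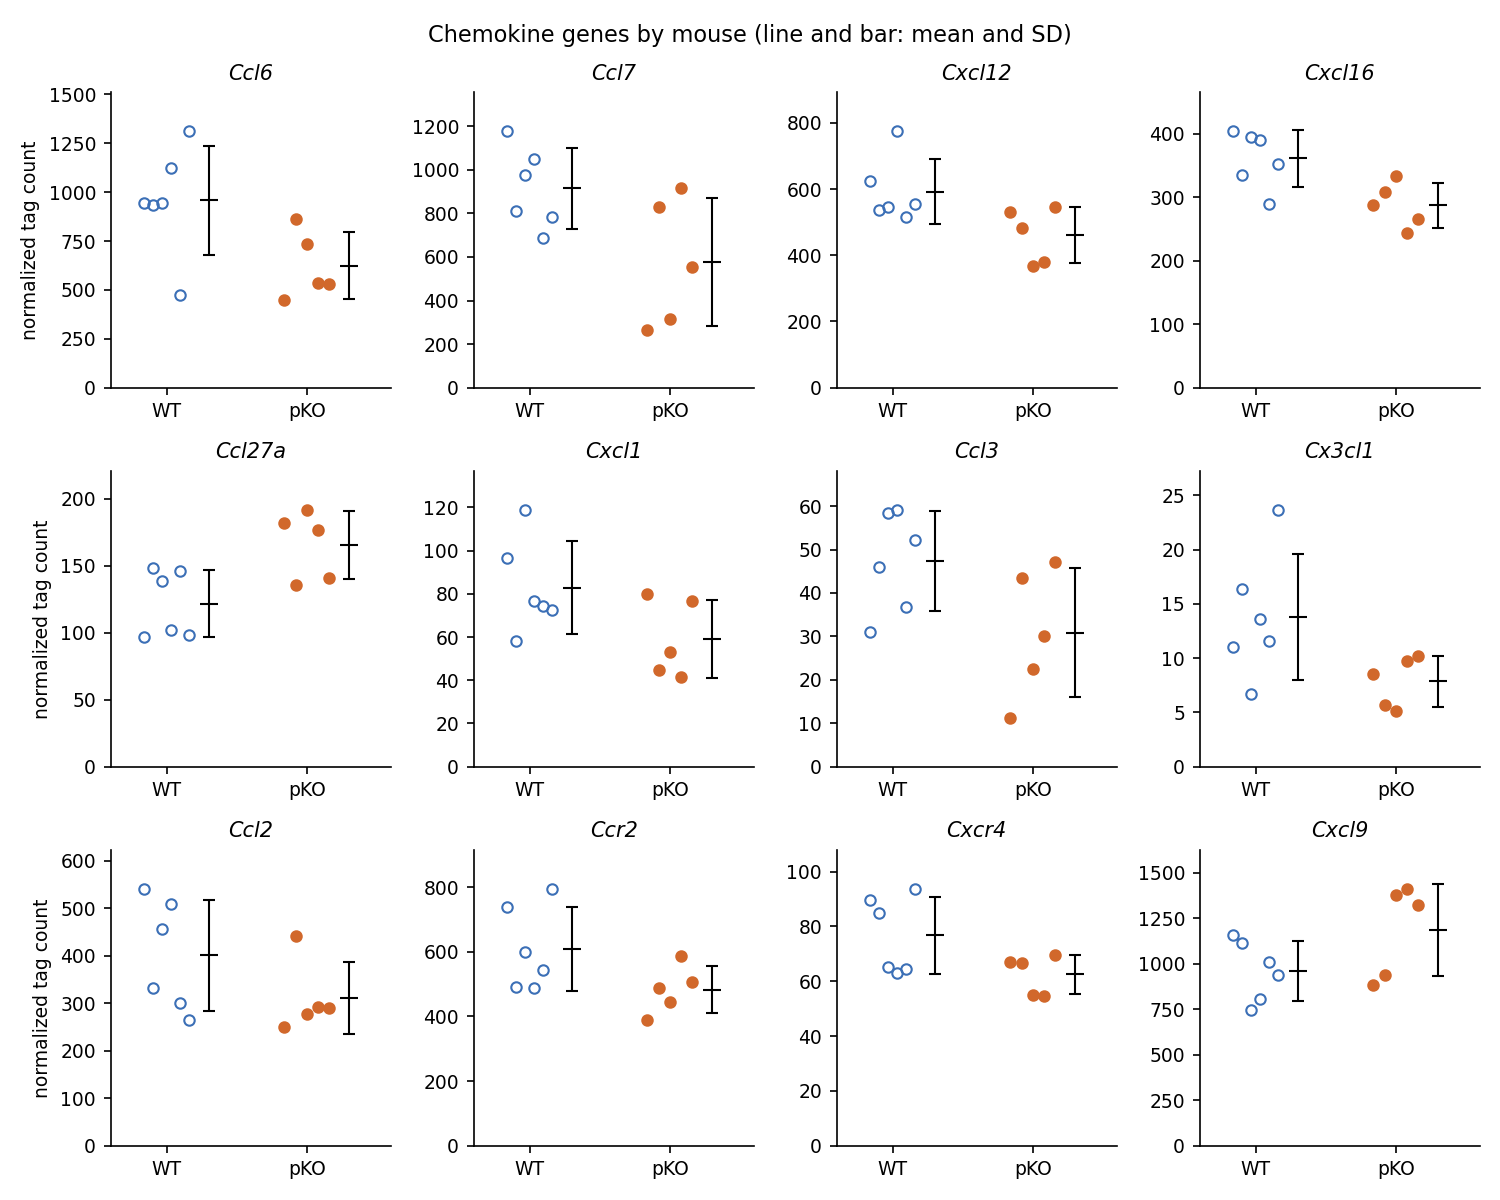
Normalized tag counts of the 8 genes whose unadjusted p was 0.05 or less and of Ccl2, Ccr2, Cxcr4 and Cxcl9, with open circles for WT and filled circles for pKO mice and mean ± SD beside each group. All axes start at 0, and the genotypes overlap in every panel.

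The other 19 members, named in the plot of log2 differences, gave no unadjusted p of 0.05 or less. Of these, Ccl25 had the next smallest value, with 20.3 to 36.0 in WT mice and 24.9, 26.4, 16.3, 22.9 and 4.09 in pKO mice (limma, unadjusted p = 0.083). The low value of pKO replicate 5 set its log2 difference of -0.73, which was -0.29 without that mouse. Without pKO replicate 2 it was -0.89, and Ccl25 and Cxcl14 (-0.75) then had an unadjusted p of at most 0.05. Cxcl14, a ligand expressed by epithelial and adipose cells, had 95.3 ± 54.0 (SD, n = 5) in pKO and 122 ± 28.8 (SD, n = 6) in WT mice, and Ccl5 (RANTES), a T cell and macrophage product, had 42.9 ± 17.2 (SD, n = 5) and 57.2 ± 27.6 (SD, n = 6). Ccl22 was at 32.0 and 32.3. Ccr7, the receptor that brings dendritic cells to lymph nodes, was at 67.5 and 61.0, and Ccr1 at 71.7 and 62.4. For genes with means under 10 the 95% intervals of the log2 difference were wide, as with Cxcr3 (-0.84 to 1.94) and Ccl28 (-1.10 to 1.68).

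Members lie in clusters in the mouse genome, and neighbours were read side by side. The chromosome 11 cluster of Ccl2, Ccl7, Ccl11 and Ccl1 had log2 differences of -0.35, -0.81, 0.00 and -0.67, a median of -0.51. In the second chromosome 11 cluster (Ccl5, Ccl9, Ccl6, Ccl3 and Ccl4) 4 of 5 differences were below 0, with a median of -0.40 and with Ccl9 at 0.16. Of the receptor genes that neighbour each other on chromosome 9, Ccr2, Ccr3 and Cxcr6 had log2 differences of -0.32, -0.35 and -0.15, and Ccr1 had 0.26. On chromosome 5, Cxcl1, Cxcl2, Cxcl5, Cxcl9 and Cxcl10 had a median of 0.10, from -0.71 for Cxcl10 to 0.29 for Cxcl9. Estimates thus varied within each cluster. Ccl1, Cxcl2, Cxcl5, Cxcl10 and Ccr3 had means under 10, and the tag of Cxcl10 is uncertain. Whether neighbours differed from each other was not tested.

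The mice also differed from each other beyond genotype. Of the 28 members with a mean of at least 10, 10 had their lowest value of the 11 mice in pKO replicate 1 and 7 had their highest in WT replicate 6. Members together took 0.0901% to 0.136% of the tags of WT mice and 0.0715% to 0.124% of those of pKO mice (exact permutation test, p = 0.405), the lowest share being that of pKO replicate 1. Summed ligands ranged from 9360 to 13408 in WT and from 7386 to 11847 in pKO mice, and summed receptors from 1986 to 3075 and from 1587 to 2650.

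Ligands and receptors were next examined as pairs. Of 40 listed pairs 24 had values for both partners, covering 19 ligands and 11 receptors. In several of them the partners differed widely in level, as with Ccl11 at a mean of 3134 and Ccl24 at 658 beside their receptor Ccr3 at 9.42, and Cxcl9 at 1062 beside Cxcr3 at 8.49. For Ccl2 (359) and Ccl7 (761) with Ccr2 (553), and Cxcl12 (533) with Cxcr7 (662), the receptor was read at a level as high as or above at least 1 of its ligands. Both partners had log2 differences below 0 in 11 of the 24 pairs, both were above 0 in 2 and the signs were opposite in 11. Those below 0 included Ccl2 and Ccl7 with Ccr2, Cxcl12 with Cxcr4 and Cx3cl1 with Cx3cr1, and the opposite ones included Cxcl12 with Cxcr7 and Ccl3, Ccl6 and Ccl7 with Ccr1. No receptor of any pair passed the unadjusted threshold. By themselves 17 of 25 ligands and 7 of 12 receptors had log2 differences below 0, and pairs shared genes. Whether the pair counts exceed what this alone gives was not tested.

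Covariation was computed for the 15 pairs with a mean of at least 10 for each partner, as the correlation over 11 mice of log2 deviations from the genotype mean, with permutations within genotype. No pair reached an adjusted p of 0.1 by Pearson's r, and 1 had an unadjusted p of 0.05 or less. The median r was 0.23, and 11 of the 15 were above 0. The smallest p was that of Ccl5 and Ccr1 (r = -0.67, permutation p = 0.020, adjusted p = 0.30; rho = -0.73, permutation p = 0.0095, adjusted p = 0.079). That relation fell to r = -0.46 without the 2 mice farthest from the Ccl5 median and was -0.76 within WT mice. The site of Ccl5 lies at the start of its transcript and that of Ccr1 at the very end. Cxcl1 and Cxcr2 were the pair with the highest rho (r = 0.54, permutation p = 0.11, adjusted p = 0.36; rho = 0.69, permutation p = 0.011, adjusted p = 0.079), with r = 0.60 without the 2 farthest mice and 0.46 within WT mice. Ccl7 and Ccr2 had r = 0.51 (permutation p = 0.076, adjusted p = 0.36; rho = 0.46, permutation p = 0.15), which was 0.16 within WT mice, and Ccl2 and Ccr2 had r = 0.01 (permutation p = 0.97; rho = 0.15, permutation p = 0.67). The pair Cxcl12 and Cxcr4 had r = 0.23 (permutation p = 0.53; rho = 0.15, permutation p = 0.66) and 0.61 without the 2 farthest mice. Without WT replicate 4 the pairs Ccl5 with Ccr1 (r = -0.80) and Cxcl12 with Cxcr4 (r = 0.68) both reached an adjusted permutation p of 0.066, which neither did with that mouse included.

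**Figure D4:**
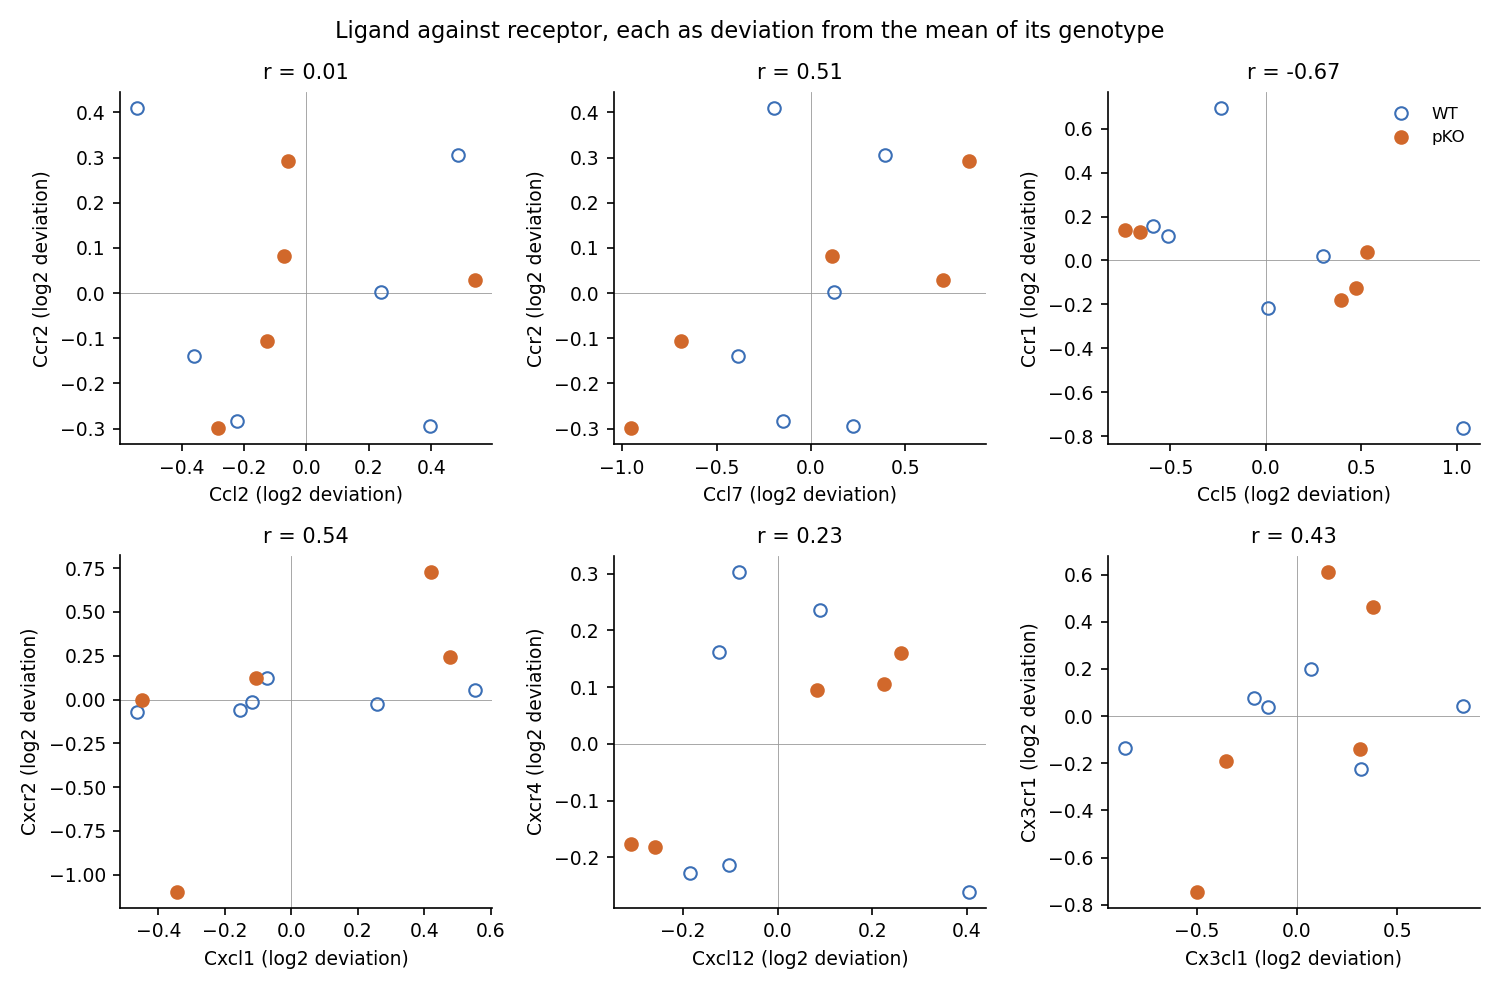
Deviation of a ligand (horizontal) and its receptor (vertical) from the mean of the genotype, both on the log2 scale, for 6 pairs, with open circles for WT and filled circles for pKO mice. The correlation r stands above each panel and runs from -0.67 for Ccl5 and Ccr1 to 0.54 for Cxcl1 and Cxcr2, with 0.01 for Ccl2 and Ccr2.

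The genes that carry the chemokine signal inside cells, and those that trim or bind chemokines, were taken from a list of 17. Of these 1 was lower and 2 were higher in pKO mice at an unadjusted p of at most 0.05, where 5.35% of all genes were lower and 4.2% higher, so the lower count is near the background. Dock2, the leukocyte Rac activator needed for chemokine-driven migration, had 329 to 479 in WT mice (median 429) and 47.2, 299, 124, 447 and 164 in pKO mice. In 4 of 5 pKO mice it was below every WT mouse (log2 difference -1.28, standard error 0.43; limma, unadjusted p = 0.0098, adjusted p = 0.39). Dpp4, a protease that clips the N terminus of Cxcl12 and other chemokines, had 593 to 1020 in WT mice (median 892) and 1454, 1195, 1087, 1177 and 1058 in pKO mice (log2 difference 0.53, standard error 0.17; limma, unadjusted p = 0.0068, adjusted p = 0.37). Gnai1, a G protein subunit that is not particular to leukocytes, was higher in pKO mice by 0.30. Gnai2, the main such subunit of leukocytes, had means of 12479 in WT and 12580 in pKO mice. Among 16 other chemoattractants and atypical receptors 1 was lower and 0 higher, which is also near that background. The gene was Darc, the scavenging receptor of erythrocytes and venules, with 129 to 307 in WT mice (median 256) and 82.4, 136, 73.3, 224 and 18.4 in pKO mice (log2 difference -1.52, standard error 0.48; limma, unadjusted p = 0.0070, adjusted p = 0.37). The atypical receptors Ccbp2 and Ccrl1 had log2 differences of -0.02 and 0.13, and the abundant platelet ligand Pf4 and Mif had -0.09 and -0.01.

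Of the 15 genes with values among the inducers of chemokines, 3 were lower and 0 higher at an unadjusted p of at most 0.05. Over all genes 5.35% were lower and 4.2% higher at that threshold. Il1r1, the interleukin 1 receptor, had 130 ± 24.8 (SD, n = 6) for WT against 88.3 ± 17.6 (SD, n = 5) for pKO, the NF-kappaB subunit gene Nfkb2 had 109 ± 25.2 against 77.2 ± 13.9, and the tumour necrosis factor receptor gene Tnfrsf1b had 359 ± 62.5 against 275 ± 63.8. Their log2 differences were -0.55, -0.48 and -0.40 (limma, adjusted p = 0.37, 0.47 and 0.51). The cytokines Tnf (16.3 and 10.7) and Il1b (5.70 and 4.87) were low in both genotypes. Irf1, which mediates induction by interferon gamma, had a log2 difference of 0.23. Il6 and Ifng were not analysed here.

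Macrophage markers were read beside the chemokines. Of 7 markers all 7 had log2 differences below 0, with Emr1 at -0.01, where 7789 of all 15453 genes did. At an unadjusted p of at most 0.05, 3 markers were lower, beside 5.35% of all genes, and none reached the adjusted threshold. The summed level of the 7 was 3233 to 4718 in WT (median 4100) and 2879 to 3839 in pKO mice (median 3241). Itgam (CD11b) had 269 to 443 in WT mice (median 322) and 190, 285, 201, 265 and 115 in pKO mice (log2 difference -0.72, standard error 0.22; limma, unadjusted p = 0.0057, adjusted p = 0.37). Itgax (CD11c), a marker of the macrophages of obese fat, had 288 to 959 in WT mice (median 737) and 192, 203, 413, 474 and 419 in pKO mice (log2 difference -0.90, standard error 0.34; limma, unadjusted p = 0.020). Cd14 was lower by the same test (log2 difference -0.45, unadjusted p = 0.030). The exact permutation test gave p = 0.0043 for Itgam, 0.054 for Itgax and 0.028 for Cd14. The general macrophage marker Emr1 (F4/80) had means of 856 in WT and 865 in pKO mice, and Mrc1 (CD206) had 1354 and 1161. None of the 7 was at 0 in any library. The part of macrophage content in the chemokine differences was not tested, and in whole tissue fewer cells of a type and less RNA per cell cannot be told apart.

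**Figure D5:**
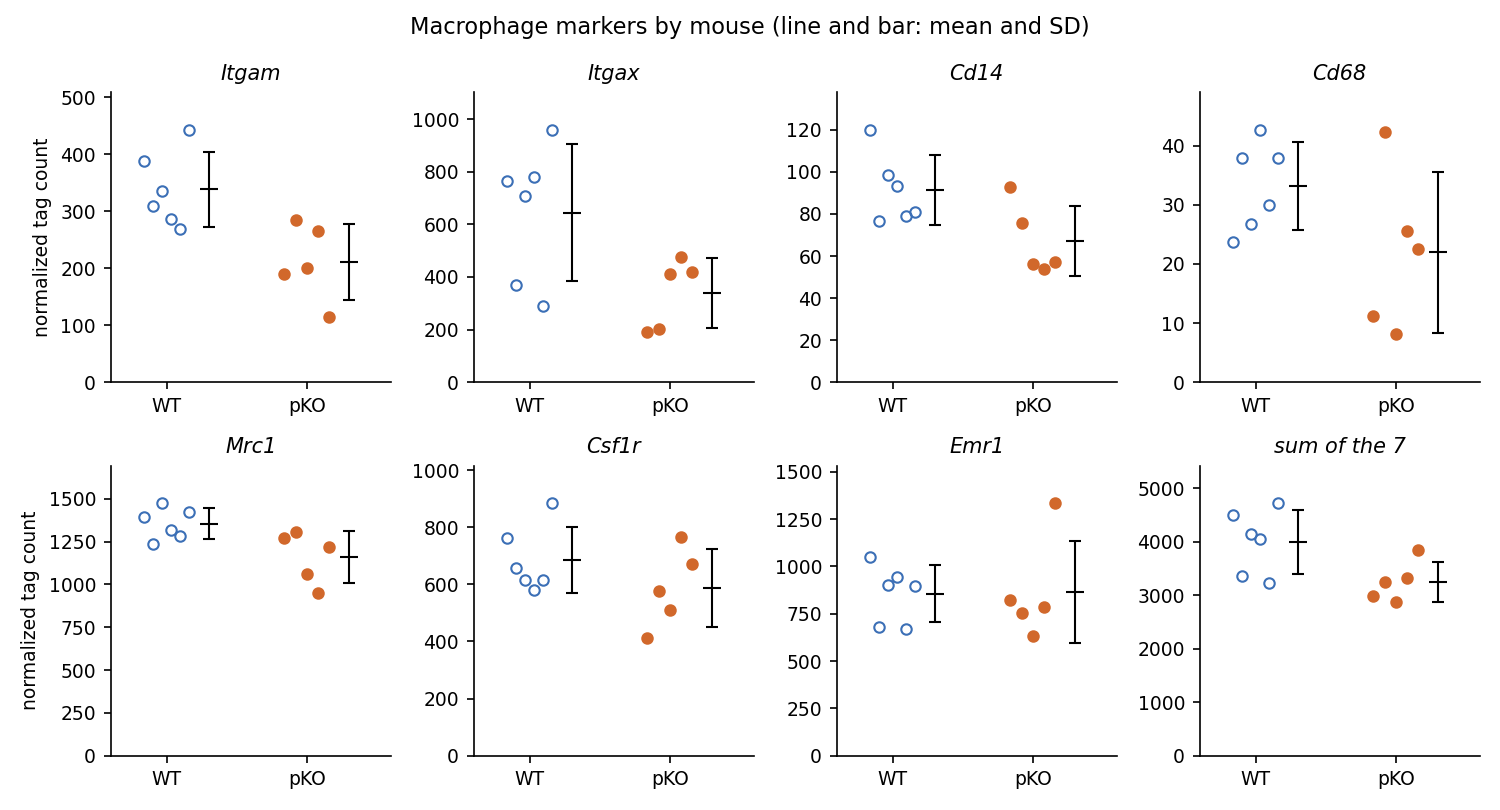
Normalized tag counts of 7 macrophage markers and of their sum in each mouse, with open circles for WT and filled circles for pKO mice and mean ± SD beside each group. In the sum the pKO mice lie between 2879 and 3839 and the WT mice between 3233 and 4718, while Emr1 has nearly equal means.

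Other leukocyte lists did not hold a gene that was lower at that threshold. T cell markers summed to 39.6 to 123 in WT and 62.7 to 97.1 in pKO mice, with Cd3g at 0 in 2 libraries, and B cell markers to 190 to 287 and 179 to 394. Neutrophil markers summed to 46.0 to 94.1 in WT and 44.8 to 82.9 in pKO mice. S100a9 was higher in pKO mice by 0.69 (limma, unadjusted p = 0.036), and S100a8 and Csf3r were at -0.57 and -0.20 without passing. For S100a9 the exact permutation test gave p = 0.056. The eosinophil markers Prg2 and Siglec5 summed to 14.3 to 18.4 and 7.73 to 30.7, low beside the eotaxins Ccl11 and Ccl24. Dendritic cell markers (248 to 349 and 231 to 372), NK cell markers (28 to 60.5 and 24.1 to 60.0) and mast cell markers (260 to 541 and 359 to 671) overlapped between genotypes.

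Among markers of other tissues no gene reached the adjusted threshold. Over all genes 5.35% were lower and 4.2% higher at an unadjusted p of at most 0.05. Mesothelial markers summed to 995 to 1349 in WT and 1331 to 2394 in pKO mice. Of these 5 genes Krt19, Upk1b and Msln were higher at an unadjusted p of at most 0.05 (log2 differences 0.73, 0.69 and 0.57), Upk3b and Wt1 did not pass, and Krt19, at 270 to 465 and 521 to 694, did not overlap. The blood genes Hba-a1 and Hba-a2 were higher by 0.78 and 0.75 at an unadjusted p of at most 0.05 in limma. For these genes the exact permutation test gave p = 0.11 and 0.091. Among the 4 endothelial genes Kdr was higher by 0.44 at the same limma threshold (exact permutation test, p = 0.030). Cdh5, Tek and Pecam1 had log2 differences of 0.38, -0.23 and -0.39 and did not pass. Of the 2 epididymal genes Gpx5 was higher by 0.68 (limma, unadjusted p = 0.034) and Adam7 had -0.19. For Gpx5 the exact permutation test gave p = 0.061. Adipocyte markers summed to 648889 to 1052386 in WT and 691278 to 1070361 in pKO mice, with none past the threshold. The part of these tissues in the chemokine differences was not tested.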

How the data were processed

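SAGE libraries of eWAT from 6 WT and 5 pKO mice were sequenced and mapped by the authors with a modified SOLiD SAGE Analysis Software. The submitters' processing notes name mm10 and edgeR 3.2.3. The gene annotation used is not given in the sources used here. The deposited values are a normalized signal: the authors' tag counts divided by a size factor per library. Whole tags were recovered for 100.0% of 169983 values (tolerance 0.01 tags). Genotypes were compared with limma 3.58.1 (trend, not robust) on log2(value + 1) over all 15453 genes, with Benjamini-Hochberg adjustment. This test was planned for normalized values and stayed the main one although whole tags could be recovered, with count tests as alternatives. A fold change on the log2(value + 1) scale understates that of genes with few tags. Single genes were also tested by exact permutation (two-sided, 11 mice, smallest p 0.0022), and ligand-receptor pairs by 100000 permutations within genotype (two-sided). Alternatives were edgeR 4.0.16, DESeq2 1.42.0 and limma-voom on recovered tags, other scalings, pseudocounts and filters, a replicate block and leaving out each mouse. The code was tested on simulated data. All members are counted, and 1 receptor and 1 inducer are not reported here by value. Those given by mouse had an unadjusted p of at most 0.05, were among the 6 highest ligands or 5 highest receptors, or belonged to the Ccl2, Cx3cl1 or Cxcl12 axes. Ccl25, with the smallest unadjusted p among members outside this rule, was given by mouse as well. The members and lists were chosen with earlier results of these data known. Mice with the same replicate number did not deviate together (correlations -0.093 to 0.138), so the numbers do not pair them. No library batch is given. Libraries of a genotype differed by far more than counting error, so all were counted as separate mice. Counting limits cover counting error only.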

Additional observations from a re-analysis of the deposited data

Results flagged for a closer look

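In 5 of 74 groups (37 genes in each genotype) the highest or lowest mouse stood apart from the rest by Dixon's criterion, where chance gives about 1 in 20 groups, or 3.7. Ccl9 was 4102 in WT replicate 1 beside 967 to 1969 in the other WT mice, and Ccl1 was 11 in the same mouse beside 1.93 to 4.86. Ccl2 was 442 in pKO replicate 2 beside 249 to 291 in the other pKO mice. Ccl24 was 392 in WT replicate 4 beside 615 to 679, and Ccl4 was 88.0 in pKO replicate 5 beside 23.4 to 41.5.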

How the results depend on the processing

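No member reached an adjusted p of 0.1 under any alternative, and the log2 difference of Mest stayed between -4.13 and -3.75. The count of members lower at an unadjusted p of at most 0.05 was 7 of 37, beside 5.35% of all genes. Among genes that averaged 50 or more in either genotype it was 4 of 20 members, beside 5.72%. With all 37 members it was 4 with DESeq2 (beside 4.53%), 5 with the edgeR quasi-likelihood test (4.48%) and 6 with limma-voom (5.53%). It was 3 with the replicate block (4.52%), which leaves out WT replicate 6, and 2 to 8 as each mouse was left out (4.04% to 7.33%). The count of higher members (1, beside 4.2% of all genes) was 0 with the replicate block (3.37%) and 0 to 2 as each mouse was left out (2.93% to 5.46%). The replicate block left Ccl6, Ccl7 and Cxcl1 past the threshold, and mice correlated best with their own number in 1 of 5. The cause of these changes was not tested beyond the fewer genes or mice in a fit. Total-count scaling moved the split over all genes from 827 lower and 649 higher to 1015 and 463, with the median of all genes at -0.036, and kept 7 and 1 members. Over all genes 5 reached the adjusted threshold, 138 with DESeq2, 9 with either filter, 1 with the replicate block, 106 without pKO replicate 2 and 14 without WT replicate 5. Companion genes, the listed genes outside the members, were 8 lower and 10 higher, beside 5.35% and 4.2% of all genes. With total-count scaling they were 14 lower and 5 higher, beside 6.57% and 3.0%. As each mouse was left out they were 6 to 14 lower and 4 to 9 higher, beside 4.04% to 7.33% and 2.93% to 5.46%. Ligand-receptor pairs at the adjusted threshold by Pearson's r were 0 to 2 as each mouse was left out, and by rho Ccl5 with Ccr1 and Cxcl1 with Cxcr2 reached it with all mice (adjusted permutation p = 0.079). Differences near 0 changed sign: Ccl11 was 0.01 with edgeR and DESeq2 and -0.08 to 0.12 as each mouse was left out, Ccl9 was -0.03 to 0.41 and Cxcr7 was -0.04 to 0.27. Members with means under 10 rest on few tags.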
